A study of Homo sapiens with 6 samples.

Results

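Glycolysis breaks glucose down to pyruvate in the cytosol, and in many cancer cells most of that pyruvate is turned into lactate even when oxygen is present. Glucose enters through facilitative transporters such as SLC2A1 (GLUT1), is trapped by hexokinase, is split into trioses by aldolase, and yields ATP at the phosphoglycerate kinase and pyruvate kinase steps. PKM, which encodes the muscle and embryonic forms of pyruvate kinase, has a product that is a reported target of shikonin, so its transcript level is of interest in cells given that compound. The genes described here are 10 chosen by symbol from this pathway: PKM, HK2, GAPDH, LDHA, PGK1, ENO1, ALDOA, PGAM1, TPI1 and SLC2A1. Of these 10 genes, 9 were among the 7150 listed in the authors' deposited table and 1, SLC2A1, was not listed.

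RNA was sequenced from MDA-MB-231, a human triple-negative breast cancer line labelled wild type. The groups were 3 libraries from cells given 0.5 µM shikonin, a naphthoquinone, for 24 h and 3 libraries from untreated cells, labelled as having no treatment, with no vehicle named. The labels write the unit of the dose with a lower-case m, which is read here as micromolar. The file analysed holds 1 comparison with 0 columns of per-sample values, so values per library, their spread and the depth of each library are unknown here. Whether the libraries of a group stem from different cultures is not labelled, and the p-values therefore reflect only the spread among these libraries, which may be technical. Which group is the numerator is not named in the header, and genes that the authors mark "up", all with positive values, are taken to be higher in shikonin.

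Only genes past an adjusted p of 0.05 and 1.5-fold in the authors' DESeq2 Wald test were listed, so an unlisted gene was either short of these thresholds or not tested, and its level is not known. From the relation of p, rank and adjusted p, about 14255 genes were tested, and 50.2% of them were called in either direction, 25.5% higher in shikonin and 24.7% lower. Group means were solved from the listed mean and fold change, taking both groups to have equal weight, and are called implied means. The implied totals of the listed genes differed between shikonin and control by 0.39 on the log2 scale (shikonin over control), so calls were also made after subtracting that shift, which is called equal implied totals. The subtraction lowers every log2 fold change, so each gene called lower had to stay lower by more than 1.5-fold, which is no test of its call. For genes called higher the text says how many stayed above 1.5-fold. The implied totals leave out genes that were not listed and include the listed glycolytic genes themselves. The shift is therefore not one between whole libraries. VIM, the mesenchymal intermediate filament gene that marks this line, stood at rank 11 of the listed genes by mean normalized count.

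Shikonin-treated cells held more RNA of 8 of the 10 glycolytic genes (beside 25.5% of all genes tested) and less of 1 (beside 24.7%). TPI1, GAPDH and ENO1 were more than 2-fold higher, PGAM1, LDHA, PGK1, ALDOA and PKM were 1.72-fold to 1.93-fold higher, and HK2 was 3.03-fold lower per the authors' deposited table. The RNA of the listed genes from ALDOA to LDHA thus moved one way and that of HK2 moved the other. Of the further hexokinase genes described below, HKDC1 was higher and HK1 was not listed. The 8 higher genes had log2 fold changes with a median of 0.89 per the authors' deposited table (1.86-fold), and the implied means of the 9 listed genes together summed to 495802 normalized counts in shikonin and 250725 in control. That sum was 3.75% of the implied total of all listed genes in shikonin and 2.49% in control. The table gives no error for these sums, and in bulk RNA fewer cells of a kind and less RNA per cell cannot be told apart.

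**Figure D1:**
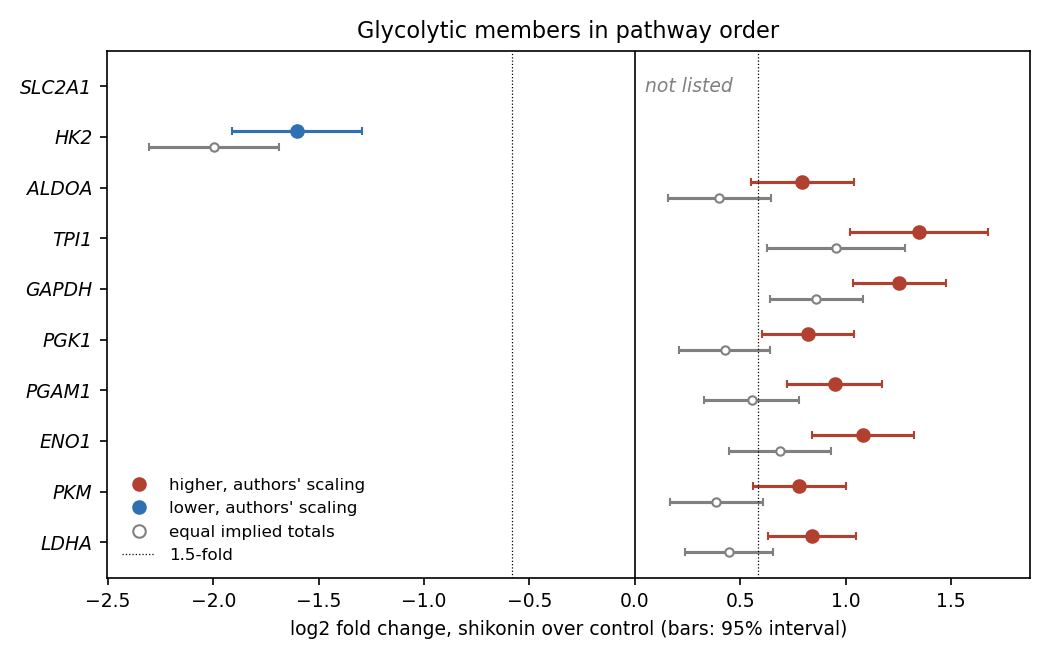
The log2 fold change (x axis, shikonin over control) with its 95% interval is plotted for the glycolytic genes in pathway order (y axis). Filled points use the authors' scaling and open points equal implied totals, and dotted lines mark 1.5-fold. HK2 stands alone on the lower side at -1.60, while 8 genes lie between 0.78 and 1.35, and 5 of these 8 fall inside the 1.5-fold line with equal implied totals.

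At the entry to the pathway, HK2 encodes hexokinase 2, the inducible isozyme that phosphorylates glucose and can bind mitochondria. Its implied mean was 947 normalized counts in shikonin and 2873 in control. The log2 fold change was -1.60 ± 0.16 (standard error) per the authors' deposited table, with a 95% interval of the fold from 2.45 to 3.76 lower and an adjusted p of 8.56e-23 (DESeq2 Wald test). With equal implied totals the log2 fold change was -2.00. HK2 lies on chromosome 2 from 74833981 to 74893359 (plus strand, GRCh38, GENCODE 29) and its principal transcript has 18 exons and 5772 nt. SLC2A1, the glucose transporter gene on chromosome 1 (42925375 to 42959176), was not listed and no value is held for it.

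ALDOA and TPI1 encode the enzymes that cleave fructose bisphosphate and interconvert the resulting trioses. ALDOA had an implied mean of 46440 normalized counts in shikonin and 26762 in control, a log2 fold change of 0.80 ± 0.12 per the authors' deposited table (adjusted p = 8.09e-10). Its fold of 1.74 had a 95% interval of 1.47 to 2.05, which reaches below the 1.5-fold threshold. TPI1 stood at 18819 in shikonin and 7390 in control. It had the largest rise among the 9 listed genes, 1.35 ± 0.17 on the log2 scale (2.55-fold, 2.03 to 3.19; adjusted p = 5.62e-15) per the authors' deposited table. ALDOA lies on chromosome 16 (30064164 to 30070457) and TPI1 on chromosome 12 (6867119 to 6870948).

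The next steps, at GAPDH, PGK1, PGAM1 and ENO1, oxidise the triose and pass its phosphate to ATP, shift the remaining phosphate and remove water. GAPDH, also a common reference gene in quantitative PCR, had an implied mean of 124552 normalized counts in shikonin and 52168 in control. Its log2 fold change was 1.26 ± 0.11 per the authors' deposited table (2.39-fold, 2.05 to 2.78; adjusted p = 1.41e-27) and 0.86 with equal implied totals. PGK1, which carries out the first ATP-forming step, had 34953 in shikonin and 19800 in control (log2 fold change 0.82 ± 0.11 per the authors' deposited table, adjusted p = 1.24e-12). PGAM1, the phosphoglycerate mutase gene, had implied means of 23408 in shikonin and 12135 in control, with a log2 fold change of 0.95 ± 0.11 per the authors' deposited table (adjusted p = 1.51e-15). ENO1, which encodes alpha-enolase, had 114877 in shikonin and 54212 in control, a 2.12-fold difference (1.79 to 2.50; adjusted p = 1.51e-17) per the authors' deposited table. GAPDH lies on chromosome 12 (6533927 to 6538374), PGK1 on X (77910739 to 78129296), PGAM1 on chromosome 10 (97426160 to 97433441) and ENO1 on chromosome 1 (8861000 to 8879250).

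The pathway ends with PKM, which makes pyruvate and ATP, and LDHA, which reduces pyruvate to lactate and regenerates NAD. PKM had an implied mean of 76627 normalized counts in shikonin and 44586 in control. Its log2 fold change of 0.78 ± 0.11 was the lowest of the 8 higher genes per the authors' deposited table (1.72-fold, 1.48 to 2.00; adjusted p = 1.72e-11). The values are per gene, so the PKM1 and PKM2 splice forms cannot be told apart. LDHA had implied means of 55180 in shikonin and 30800 in control, and a log2 fold change of 0.84 ± 0.11 per the authors' deposited table (1.79-fold, 1.55 to 2.07; adjusted p = 3.36e-14). PKM lies on chromosome 15 (72199029 to 72231822, minus strand) and LDHA on chromosome 11 (18394388 to 18408425).

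**Figure D2:**
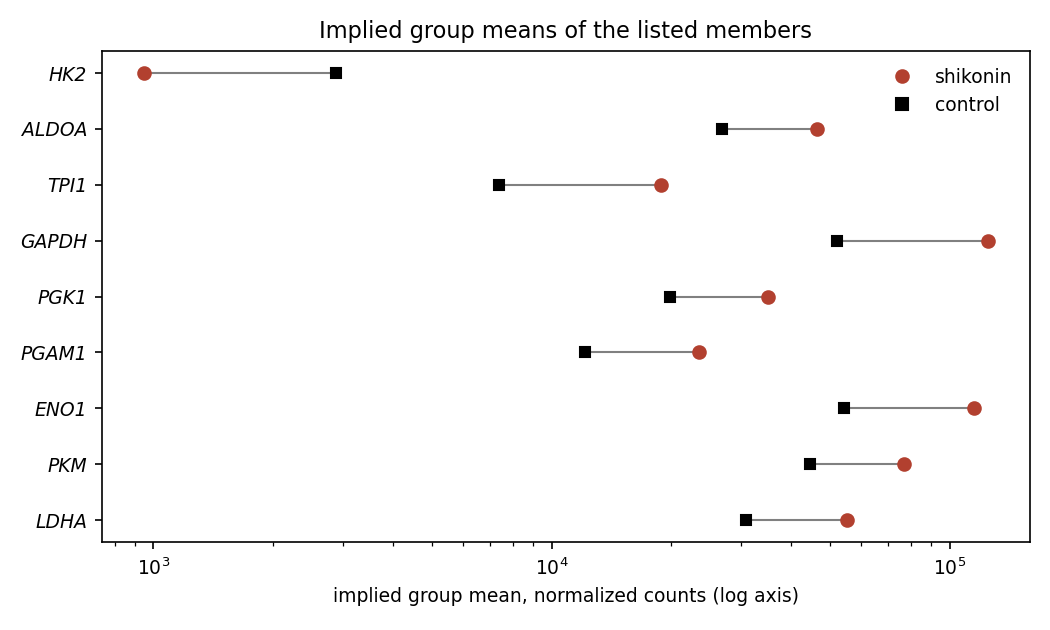
Implied group means in normalized counts (x axis, log scale) are plotted for the 9 listed glycolytic genes (y axis), with circles for shikonin and squares for control and no error bars, since none can be solved from the table. HK2 is the one gene whose shikonin circle lies left of its control square, at 947 against 2873, and it has the lowest counts of the 9.

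Among the 8 higher genes the size of the rise separated few. The 95% intervals overlapped in 26 of the 28 pairs, and the exceptions were TPI1 against PKM and GAPDH against PKM. Intervals of single genes are not a test of the difference between genes, which would need per-sample values. The interval lay wholly beyond 1.5-fold for 6 of the 8 higher genes, all but PKM and ALDOA, and for HK2; of all genes tested, 16.0% were higher and 14.8% lower by that measure. At a fold of at least 2, 3 genes were higher (TPI1, GAPDH and ENO1) and HK2 lower, against 16.4% higher and 14.6% lower of all genes tested.

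Whether 5 of the 8 rises passed the fold threshold depended on the scaling. With equal implied totals, TPI1 (0.95), GAPDH (0.86) and ENO1 (0.69) stayed above 1.5-fold on the log2 scale, beside 16.8% of all genes tested. PGAM1 (0.55), LDHA (0.45), PGK1 (0.43), ALDOA (0.40) and PKM (0.39) did not, although each of these had a 95% interval above 0. HK2 was lower under both scalings, which was fixed in advance because the shift lowers every log2 fold change. SLC2A1 could enter as lower under this shift, and this cannot be checked without its value.

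The glycolytic genes were among the most abundant messages in the table. By mean normalized count GAPDH stood at rank 3 of 7150 listed genes, ENO1 at 4, PKM at 13, LDHA at 21, ALDOA at 30, PGK1 at 43, PGAM1 at 75 and TPI1 at 118, while HK2 stood at 1254. Per kb of principal transcript the mean normalized count over all 6 libraries was 47125 for GAPDH, 36053 for ENO1, 22833 for ALDOA, 22306 for PKM and 17794 for LDHA. It was 10645 for TPI1, 9711 for PGAM1, 5602 for PGK1 and 331 for HK2, so the highest and lowest level differed 142-fold. No spread between libraries is held, so neighbours in this order, such as ALDOA and PKM, cannot be called different. The 8 higher genes were all among the 158 listed genes whose mean reached 10000 normalized counts. Of those 158 genes, 141 were higher in shikonin and 17 lower (89.2% higher), and their median on the log2 scale was 1.27 per the authors' deposited table, above the 0.89 of the 8 glycolytic genes.

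Direction in the whole table moved with transcript length. PGK1 went against that trend at its annotated length, and the other 8 listed glycolytic genes had the direction most common in their length class. Of the 692 listed protein-coding genes with the shortest principal transcripts, up to 1086 nt, 97.7% were higher in shikonin, while the share was 4.48% for the 692 genes with transcripts of 8008 nt or more. TPI1 (1231 nt), ALDOA (1603 nt), PGAM1 (1830 nt), GAPDH (1875 nt), ENO1 (2345 nt), LDHA (2416 nt) and PKM (2717 nt) fall in classes of which 63.9% to 96.8% were higher. Within their own length deciles their fold changes stood at percentile 66.6 for TPI1, 32.2 for ALDOA, 45.4 for PGAM1, 66.8 for GAPDH, 60.5 for ENO1, 44.2 for LDHA and 52.6 for PKM. These 7 genes thus rose about as much as other listed genes of their length. HK2 (5772 nt) lies in a decile of which 11.7% were higher, with a median log2 fold change of -1.04, and stood at percentile 12.9 of it, lower than most. The part of length in these changes was not tested.

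PGK1 differed most from the median of its length class, by 1.67 on the log2 scale, against -0.56 for HK2. Its principal transcript of 4887 nt falls in a decile with 16.9% of genes higher and a median log2 fold change of -0.85, where its rise of 0.82 stood at percentile 87.9. That placement rests on the annotation, since GENCODE 29 also gives PGK1 a coding transcript of 2405 nt. At that length it would stand at percentile 42.2 of a decile with a median of 0.93. The table does not show which transcript these cells used.

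**Figure D3:**
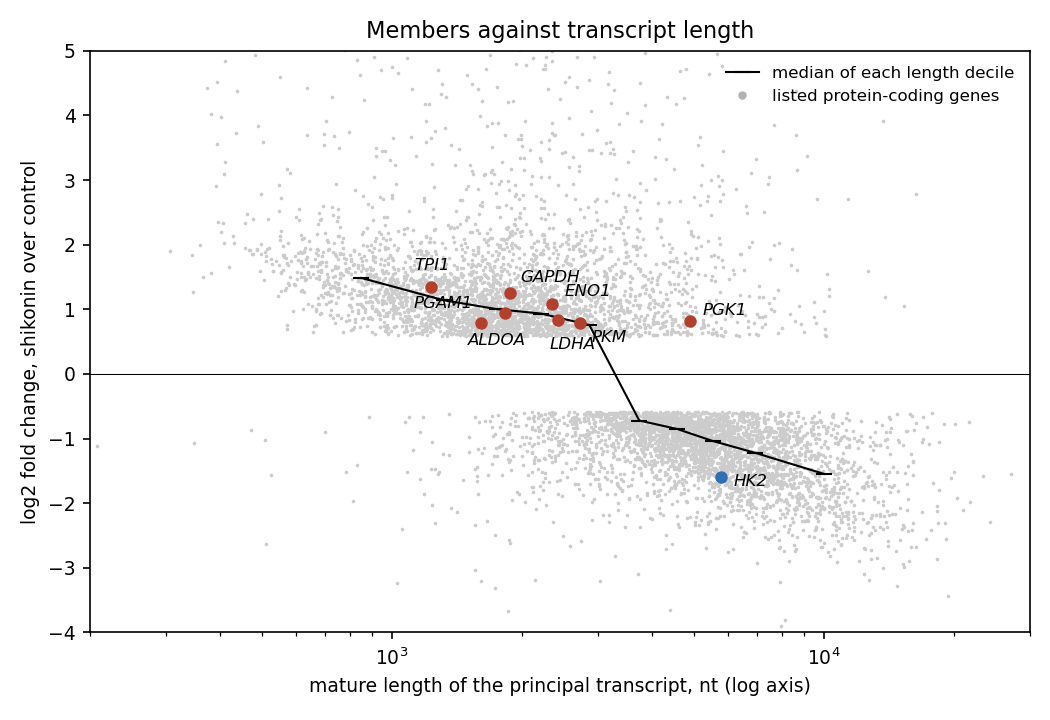
Log2 fold change (y axis, shikonin over control) is plotted against the mature length of the principal transcript (x axis, nt, log scale) for listed protein-coding genes in grey and the glycolytic genes in colour, with the black line joining the medians of the 10 length deciles. The axis runs from -4 to 5, which leaves 107 genes outside. Most glycolytic genes lie close to the line, HK2 lies below it at -1.60 and PGK1 above it at 0.82.

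Promoter letters are shown for HK2, the gene that fell, and for GAPDH and PGK1, which rose, because the glycolytic genes are known as targets of hypoxia-inducible factor and MYC. Windows of 250 bases upstream of each RefSeq start (GRCh38.p14) were searched on both strands for ACGTG, the core of the hypoxia response element, for the E-box CACGTG that contains it, for TGACNNNGC, the core of the antioxidant response element, and for GAANNTTC, a core of the heat shock element. All 10 genes matched the RefSeq table, with 15 windows. Only stretches outside annotated exons are printed, 5′ to 3′ on the plus strand of GRCh38.p14, with matches in capitals. They come from chr2:74833877-74833980 and chr2:74834920-74835169 (HK2), chr12:6535142-6535263 (GAPDH) and chrX:78103998-78104173 (PGK1), and all but the first lie within the annotated span of their gene, upstream of one of its starts.
HK2 start 1: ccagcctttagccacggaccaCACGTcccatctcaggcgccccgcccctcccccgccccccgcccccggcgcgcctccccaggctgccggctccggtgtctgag
HK2 start 2: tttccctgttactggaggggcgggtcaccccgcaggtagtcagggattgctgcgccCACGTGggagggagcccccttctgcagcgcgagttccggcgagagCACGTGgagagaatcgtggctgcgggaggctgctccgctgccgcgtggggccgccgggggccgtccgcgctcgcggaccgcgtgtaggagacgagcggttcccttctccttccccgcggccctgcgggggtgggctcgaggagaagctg
GAPDH: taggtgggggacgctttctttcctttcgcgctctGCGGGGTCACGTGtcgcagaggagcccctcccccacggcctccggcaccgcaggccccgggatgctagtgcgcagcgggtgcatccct
PGK1: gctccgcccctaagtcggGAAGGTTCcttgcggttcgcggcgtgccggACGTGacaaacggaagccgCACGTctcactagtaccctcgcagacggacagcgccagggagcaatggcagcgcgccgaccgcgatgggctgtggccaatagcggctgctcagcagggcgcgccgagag
In GAPDH the capitals hold an antioxidant response core read on the minus strand that overlaps an E-box, and in PGK1 they hold a heat shock core and a pair of hypoxia cores.

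The hypoxia core was found upstream of 6 of the 10 genes (ALDOA, GAPDH, HK2, LDHA, PGK1 and TPI1). It was in 9 of the 15 windows of all 10 genes, against 18.5% of all 35116 windows in the table. A share per gene over all genes was not computed. Genes with several windows, such as ALDOA, HK2, LDHA and TPI1, have more places for a match. The E-box was found for ALDOA, GAPDH, HK2 and LDHA, in 4 of the 15 windows (6.34% of all windows). The antioxidant core was found for GAPDH and PKM, in 2 windows (10.9%), and the heat shock core for PGK1, in 1 (5.78%). HK2, which fell, and ALDOA, GAPDH and LDHA, which rose, all hold both the hypoxia core and the E-box, so these letters do not separate the directions. A match is a description of these windows and not evidence that a factor binds there.

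Of 18 further glycolytic enzymes and isozymes, 6 were higher (33.3%, near the 25.5% of all genes tested), 0 lower and 12 not listed, among the last HK1, GPI, PFKL, PFKM and ENO2. With equal implied totals 4 stayed above 1.5-fold (beside 16.8% of all genes tested), while PFKP (0.32 on the log2 scale) and ALDOC (0.44) did not. PFKP, the platelet phosphofructokinase that commits sugar to glycolysis, had an implied mean of 10192 normalized counts in shikonin and 6222 in control (log2 fold change 0.71 ± 0.14 per the authors' deposited table, adjusted p = 1.91e-06). LDHB, the other main lactate dehydrogenase subunit, was 2.42-fold higher (1.99 to 2.94; adjusted p = 8.44e-18) per the authors' deposited table. HKDC1, a hexokinase-like gene, moved opposite to HK2, with an implied mean of 210 in shikonin and 54.8 in control and a log2 fold change of 1.94 ± 0.31 per the authors' deposited table (adjusted p = 1.32e-09). Per kb of principal transcript its mean over all libraries was 35.8 normalized counts, a lower level than the 331 of HK2.

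The low-level isozymes ENO3, ALDOC and LDHC were higher as well. ENO3, the muscle enolase, had 189 normalized counts in shikonin and 63.1 in control (log2 fold change 1.58 ± 0.27 per the authors' deposited table, adjusted p = 1.25e-08). ALDOC, the brain aldolase, had 191 in shikonin and 108 in control (0.83 ± 0.25 per the authors' deposited table, adjusted p = 0.00202). LDHC, the testis lactate dehydrogenase, had implied means of 37.4 in shikonin and 0.314 in control. Its log2 fold change was 6.90 ± 1.33 per the authors' deposited table (adjusted p = 7.39e-07, DESeq2 Wald test). That value rests on very few control reads, if any, so its size is uncertain. LDHC begins 3881 bases after the annotated end of LDHA on the same strand.

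Regulators of glycolytic flux went mostly the other way. Of 14 genes, 2 were higher (beside 25.5% of all genes tested), 8 lower (beside 24.7%) and 4 not listed. Of the 2 higher genes PDK4 alone stayed above 1.5-fold with equal implied totals (beside 16.8% of all genes tested). The 10 listed regulators had a median log2 fold change of -0.73 and a median principal transcript of 3824 nt, beside 0.84 and 2345 nt over the 9 listed glycolytic genes, 0.60 over all listed genes and 3292 nt over those that code for protein. PDP2, a phosphatase that activates pyruvate dehydrogenase, had 154 normalized counts in shikonin and 564 in control, a log2 fold change of -1.88 ± 0.21 per the authors' deposited table (adjusted p = 2.77e-17). PDK4, a kinase that inhibits the same enzyme, was 2.50-fold higher (1.78 to 3.50; adjusted p = 3.63e-07), and TIGAR, a fructose bisphosphatase that slows glycolysis, was 2.39-fold lower (1.46 to 3.91; adjusted p = 0.00118) per the authors' deposited table. PFKFB3, which makes the phosphofructokinase activator fructose 2,6-bisphosphate, was 1.64-fold lower (1.31 to 2.05; adjusted p = 4.15e-05), and PDK1 and PDK3, which like PDK4 inhibit pyruvate dehydrogenase, were 1.58-fold (1.24 to 2.01) and 1.65-fold (1.33 to 2.06) lower per the authors' deposited table. TXNIP, an arrestin-fold protein that lowers glucose uptake, was 1.81-fold lower (1.51 to 2.18; adjusted p = 8.80e-10) per the authors' deposited table, and its paralogue ARRDC4 was 2.27-fold lower (1.56 to 3.31). The glucose-sensing factor MLXIP (MondoA), known to activate TXNIP and ARRDC4, was 4.69-fold lower (3.58 to 6.13; adjusted p = 7.91e-28), while its partner MLX was 1.55-fold higher (1.28 to 1.86) per the authors' deposited table. The principal transcript of MLXIP has 8427 nt. It falls in a length decile with 4.48% of genes higher and a median log2 fold change of -1.55. MLXIP stood at percentile 15.5 of that decile, and the part of length in its fall was not tested. Of the 8 transcription factors of glycolytic genes examined, 1 was higher (beside 25.5% of all genes tested) and 2 lower (beside 24.7%). The higher gene was MLX (0.23 on the log2 scale with equal implied totals, below 1.5-fold), and the lower were MLXIP and ARNT. HIF1A, EPAS1, MYC, MAX and MLXIPL were not listed. PFKFB3, PDK1, PDK3, TXNIP and ARRDC4 were named after their values were seen.

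**Figure D4:**
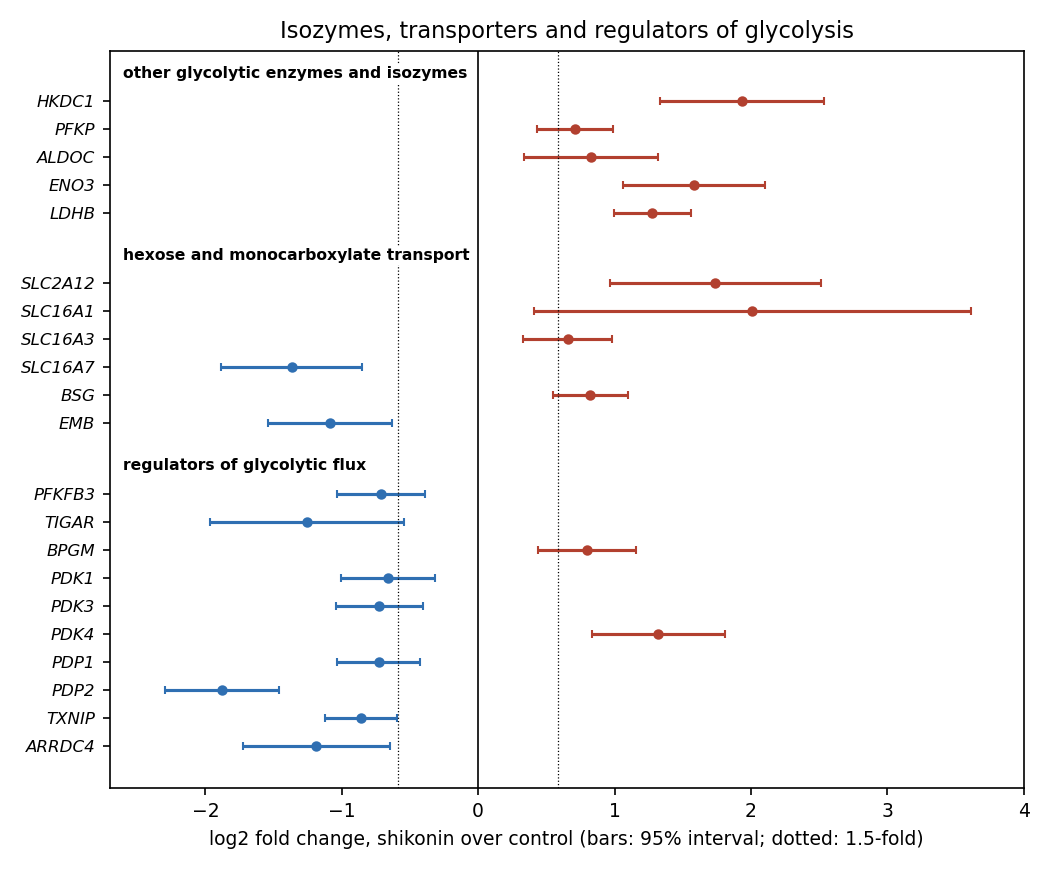
Log2 fold change (x axis, shikonin over control) with its 95% interval is plotted for the listed isozymes, transporters and flux regulators (y axis, grouped), with red for higher, blue for lower and dotted lines at 1.5-fold. LDHC, at 6.90, is left out because its interval exceeds the axis. The isozymes lie to the right of 0, while 8 of the 10 listed regulators lie to the left.

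Among 13 genes of hexose and monocarboxylate transport, 4 were higher (30.8%, near the 25.5% of all genes tested), 2 lower (beside 24.7%) and 7 not listed. With equal implied totals 2 stayed above 1.5-fold (beside 16.8% of all genes tested), while SLC16A3 (0.26 on the log2 scale) and BSG (0.43) did not. SLC16A3, the lactate exporter MCT4, had an implied mean of 16696 normalized counts in shikonin and 10585 in control (log2 fold change 0.66 ± 0.17 per the authors' deposited table, adjusted p = 1.96e-04). BSG, its chaperone basigin, was 1.77-fold higher (1.46 to 2.14) per the authors' deposited table. SLC16A1, the transporter MCT1, had 28.9 in shikonin and 7.16 in control (2.01 ± 0.82, adjusted p = 0.0241 per the authors' deposited table), a low level in this line: per kb the mean over all libraries was 4.12 normalized counts for SLC16A1 and 2824 for SLC16A3. SLC16A7, the transporter MCT2, and EMB, the chaperone embigin, were 2.58-fold (1.80 to 3.69) and 2.12-fold (1.55 to 2.90) lower per the authors' deposited table. SLC2A12, a further glucose transporter, was 3.34-fold higher (1.95 to 5.71; adjusted p = 3.12e-05) per the authors' deposited table, from implied means of 108 in shikonin and 32.2 in control. SLC16A3, BSG and EMB were named after their values were seen.

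Of 8 genes of the pentose phosphate pathway, 2 were higher (25%, near the 25.5% of all genes tested) and 6 not listed, among them TKT. The higher genes were TALDO1 and PGLS, by 2.18-fold (1.80 to 2.65) and 2.27-fold (1.85 to 2.80) per the authors' deposited table. Both stayed above 1.5-fold with equal implied totals (beside 16.8% of all genes tested). Of 7 gluconeogenic genes 4 were higher (beside 25.5% of all genes tested), 0 lower and 3 not listed. With equal implied totals 3 stayed above 1.5-fold (beside 16.8% of all genes tested). FBP1, the fructose bisphosphatase that opposes phosphofructokinase, had 1365 normalized counts in shikonin and 348 in control (log2 fold change 1.97 ± 0.17 per the authors' deposited table, adjusted p = 2.14e-30). PCK2, the mitochondrial PEP carboxykinase, and PC, pyruvate carboxylase, were 2.33-fold (1.79 to 3.05) and 2.06-fold (1.72 to 2.48) higher per the authors' deposited table, and these 3 are the ones that stayed above it.

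Downstream of pyruvate, 2 of 7 genes of pyruvate entry and the pyruvate dehydrogenase complex were higher (28.6%, near the 25.5% of all genes tested). These were the carrier subunits MPC2 and MPC1, 2.46-fold (1.95 to 3.11) and 1.59-fold (1.24 to 2.04) higher per the authors' deposited table. The 5 pyruvate dehydrogenase complex genes were not listed. With equal implied totals MPC2 stayed above 1.5-fold (beside 16.8% of all genes tested) and MPC1 (0.28 on the log2 scale) did not. Of 20 tricarboxylic acid cycle genes and cytosolic counterparts, 11 were higher (beside 25.5% of all genes tested), 2 lower (beside 24.7%) and 7 not listed. IDH2, mitochondrial isocitrate dehydrogenase, SDHB, a succinate dehydrogenase subunit, and MDH1, cytosolic malate dehydrogenase, were higher per the authors' deposited table, IDH2 by 2.45-fold (1.93 to 3.11), SDHB by 2.18-fold (1.79 to 2.66) and MDH1 by 2.12-fold (1.77 to 2.54). OGDH and IDH3A were the lower genes, by 1.69-fold (1.43 to 2.00) and 1.55-fold (1.27 to 1.89) per the authors' deposited table, and both were named after their values were seen. With equal implied totals 3 of the 11 (IDH2, SDHB and MDH1) stayed above 1.5-fold. That is 3 of the 20 genes, near the 16.8% of all genes tested. Of 8 shuttle genes that carry glycerol phosphate or NADH equivalents, 2 were higher (near the 25.5% of all genes tested), 3 lower (beside 24.7%) and 3 not listed. Of the 2 higher genes 0 stayed above 1.5-fold with equal implied totals (beside 16.8% of all genes tested). GPD2, mitochondrial glycerol phosphate dehydrogenase, was 2.04-fold lower (1.52 to 2.73) per the authors' deposited table. GPD1L, a cytosolic counterpart, was 1.97-fold lower (1.54 to 2.52) and GOT1, the cytosolic aspartate aminotransferase, 1.64-fold higher (1.37 to 1.95) per the authors' deposited table, the last at 0.32 on the log2 scale with equal implied totals.

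Splicing factors that choose between the PKM1 and PKM2 exons were higher in 3 of 5 cases (beside 25.5% of all genes tested), with HNRNPA1 and PTBP1 not listed. RBM4 was 2.44-fold higher (2.03 to 2.94), SRSF3 1.87-fold (1.58 to 2.22) and HNRNPA2B1 1.65-fold (1.39 to 1.95) per the authors' deposited table. RBM4 alone stayed above 1.5-fold with equal implied totals (beside 16.8% of all genes tested).

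**Figure D5:**
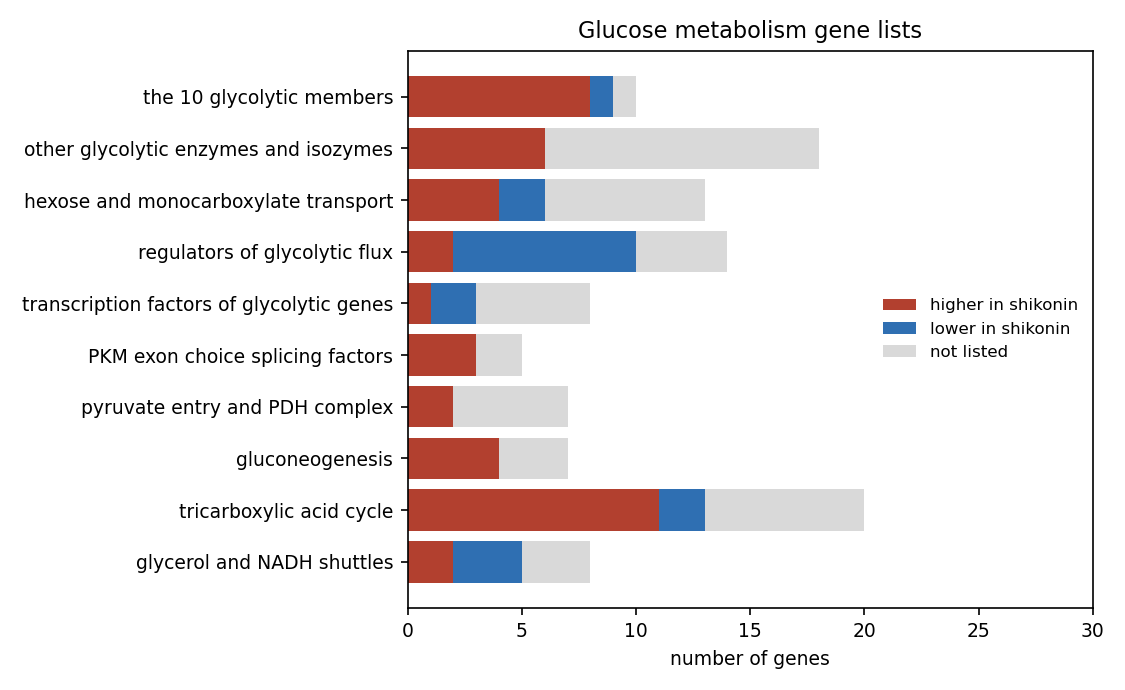
The number of genes (x axis) higher in shikonin, lower in shikonin or not listed is stacked for 10 lists of glucose metabolism genes (y axis). The 10 glycolytic genes show 8 higher and 1 lower, and the flux regulators 2 higher and 8 lower.

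Markers of the line and of other cell types were examined beside these results. Among mesenchymal markers VIM and SPARC were higher and FN1 lower, VIM being 1.74-fold higher (1.47 to 2.07) per the authors' deposited table but below 1.5-fold with equal implied totals (0.41 on the log2 scale). Of 9 luminal epithelial markers 5 were higher (beside 25.5% of all genes tested), and ESR1, PGR, GATA3 and CDH1 were not listed. Among the 5 were KRT18, 3.18-fold higher (2.61 to 3.87), and KRT19, 2.80-fold higher (2.28 to 3.44). FOXA1 was another, with an implied mean of 67.9 in shikonin and 2.91 in control. The summed implied mean of the 5 luminal markers was 59959 normalized counts in shikonin and 22255 in control. Of 9 fibroblast and immune markers 4 were higher (beside 25.5% of all genes tested), CD14, PECAM1 and PDGFRB among them. Their sums were 6518 in shikonin and 3258 in control, mostly from CD68, with implied means of 4295 in shikonin and 2717 in control. CD68 was 1.58-fold higher (1.34 to 1.86) per the authors' deposited table, and stood at 0.27 on the log2 scale with equal implied totals. It was named after its values were seen. COL1A1, COL1A2, DCN, PTPRC and CD3E were not listed. The 5 luminal markers and 2 of these 4 stayed above 1.5-fold with equal implied totals, beside 16.8% of all genes tested. Their part in the glycolytic result was not tested.

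GENCODE 29 names 98 pseudogenes after the 10 genes, 62 of them after GAPDH and 13 after PGAM1. The sources used here do not say how the authors counted reads that match several copies, so the levels of GAPDH and PGAM1 are uncertain to that extent.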

How the data were processed

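RNA of MDA-MB-231 cells (3 shikonin and 3 untreated libraries) was sequenced from NEBNext Ultra RNA libraries, per the labels' protocols. Alignment software (HISAT2 2.0.5), fastp, DESeq2 and the hg38 build are named in the submitters' processing notes. A read counter and an annotation were not given in the sources used here. Per the file headers, the deposited mean normalized count is a signal that the authors scaled by size factors and averaged over the 6 libraries. The log2 fold change, with a standard error, was deposited by the authors. The Wald score deposited by the authors equals the fold change over the standard error for each listed gene. Per the file headers, each p-value has an adjusted form.

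From these were computed implied group means, 95% normal intervals from the listed standard error, the number of genes tested (median over the 50 genes with the smallest p above 0; 14192 to 14306), and percentiles within deciles of mature length. Lengths and positions came from GENCODE 29 (GRCh38), which matched 7142 of 7150 genes by Ensembl identifier. The scripts were tested on simulated data and ran with Python 3.11.15, pandas 2.3.3, NumPy 2.4.6 and SciPy 1.17.1. The planned tests on values per sample could not be run. The members and lists were chosen with earlier results of these data known. Named genes are all members, all listed other isozymes and up to 3 genes of each further list with the largest change; exceptions are marked, and some genes of these lists are not reported here. The alternatives were other thresholds, equal implied totals and other definitions of length.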

Additional observations from a re-analysis of the deposited data

How the results depend on the processing

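Of the 10 genes, 8 were called higher and 1 lower by the authors' thresholds. The count of higher genes was 3 at a fold of at least 2 and 3 with equal implied totals, in both cases TPI1, GAPDH and ENO1, because each alternative raises the bar for a rise. It was 8 at an adjusted p below 0.001 and 6 with the 95% interval beyond 1.5-fold. HK2 was the 1 lower gene under these 4 alternatives, but equal implied totals could only move it further down and do not test its call. Relative to the median of their length decile, the log2 fold change turned negative for ALDOA (-0.21), PGAM1 (-0.054) and LDHA (-0.092), since these medians were 0.93 to 1.00, and was -0.56 for HK2 and 1.67 for PGK1. Length percentiles were also computed with the transcript of the longest coding sequence, with genes of a mean of at least 100, and, added after the data were seen, with the median length of coding transcripts. They ran from 42.8 to 70.7, 48.3 to 75.2 and 42.1 to 74.6 for the higher genes other than ALDOA and PGK1, from 30.6 to 39.0 for ALDOA, from 11.6 to 16.0 for HK2 and from 86.1 to 93.2 for PGK1. Equal implied totals for the other lists were also added after the data were seen. No paired analysis was possible because the deposited table has 0 columns of per-sample values. For the same reason leaving out single libraries, other normalizations and a filter on low counts were not run, and depth is unknown.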

Other observations

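Of the 98 pseudogenes named after the 10 genes, 2 were listed in the authors' deposited table, both at few reads. PKMP3, a PKM pseudogene on chromosome 6, had an implied mean of 17.0 normalized counts in shikonin and 0.313 in control, with a log2 fold change of 5.76 ± 1.49 per the authors' deposited table (adjusted p = 2.63e-04). The PGAM1 pseudogene ENSG00000213997 on the X chromosome had 1.53 in shikonin and 13.8 in control, with a log2 fold change of -3.18 ± 1.28 per the authors' deposited table (adjusted p = 0.0230), opposite to PGAM1 itself. Both lie far below their parent genes, at means of 8.67 and 7.66 normalized counts over all libraries.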
